A study of Mus musculus with 2 samples.

Results

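The genes described here are the Reelin pathway and a set of neuronal migration genes, 10 of the 55416 features counted in each library. They were picked by gene symbol and not by a cutoff on a measured value, but with earlier results of these data known. The members are Reln, Dab1, Vldlr, Lrp8, Crk, Crkl, Fyn, Cdk5, Dcx and Pafah1b1. All 10 were found once in the feature list and all 10 had at least 100 UMIs over both libraries. A UMI (unique molecular identifier) is a random tag on each captured RNA, and its PCR duplicates are merged.

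Single-nucleus RNA-seq was run on whole fetal brain of wildtype mice and of mice with a knockout of Cav1, the gene of the membrane protein caveolin 1, with 1 library of each genotype. The labels give the stage as fetal without an embryonic day, and no strain, sex, knockout allele or number of brains per library. Nuclei came from frozen tissue and were captured with 10x Genomics 3′ chemistry. With 1 library per genotype no difference between genotypes can be tested, and every interval below is a 95% interval that covers counting error only.

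Reelin, encoded by Reln, is a large secreted glycoprotein that Cajal-Retzius cells release at the surface of the developing cortex. It binds the receptors VLDLR and ApoER2, encoded by Vldlr and Lrp8, on migrating neurons. The adaptor DAB1 is then phosphorylated by Src family kinases such as FYN and recruits CRK and CRKL, and loss of Reln or Dab1, or of both receptors together, disturbs the layering of the cortex. CDK5, doublecortin (Dcx) and LIS1 (Pafah1b1) act on microtubules, dynein and other substrates as neurons move, in part apart from Reelin.

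After nuclei with under 500 genes or over 5% mitochondrial UMIs were left out, 6686 wildtype-labelled and 6680 knockout-labelled nuclei remained, with a median of 2133.5 and 2366 UMIs. Of 43 barcodes that occur in both libraries, 10 were kept in both. Cav1, the targeted gene, did not separate the libraries over all nuclei, with 71 UMIs in nuclei labelled wildtype and 80 in those labelled knockout. In endothelial cell-like nuclei it had 17 UMIs in 48 nuclei and 1 UMI in 64 nuclei (log2 ratio -4.57, interval -9.96 to -1.90). Cav1 had 1 and 21 UMIs in neuron-like nuclei, and 22 and 23 UMIs in 890 and 795 radial glia-like nuclei. Gm15581, a long noncoding RNA gene that spans Cav1 on the opposite strand (chromosome 6 at 17206822-17385603 of GRCm39), did separate the libraries, with 62 and 1834 UMIs. Which part of Cav1 is deleted is not given, so the libraries are called by their labels, and where 2 values stand side by side the wildtype-labelled one comes first. Clustering without the 10 members gave 23 clusters. Of these, 20 were named in 13 classes from marker genes and 3 stayed unnamed. One class, called neuron-like, carries general neuron markers and was not named from regional ones.

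Reln, the ligand (ENSMUSG00000042453), lies on chromosome 5 at 22089452-22549700 of GRCm39, on the minus strand. It was concentrated in Cajal-Retzius cell-like nuclei. This cluster of 38 wildtype-labelled and 34 knockout-labelled nuclei had all 7 Cajal-Retzius markers (Trp73, Lhx5, Lhx1, Ndnf, Calb2, Ebf3 and Nhlh2) at least 2-fold above the other nuclei, and Trp73 led its genes. Its Reln level, in UMIs per 1000000 UMIs (CPM), was 10083 (interval 9538 to 10651) in wildtype-labelled nuclei and 13450 (12842 to 14080) in knockout-labelled ones. These levels were 76.1 and 82.9 times those of all other nuclei. Of all genes tested, 3.68% were at least 2-fold above the other nuclei in this class in both libraries, and Reln was the only member among them. When nuclei with at most 1% mitochondrial UMIs were clustered and named anew, the class of this name had 3005 and 4134 Reln CPM.

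Every Cajal-Retzius cell-like nucleus carried Reln. In the wildtype-labelled library the nuclei held from 1 to 84 Reln UMIs with a median of 28, and in the knockout-labelled library from 1 to 205 with a median of 45.5. As a share of a nucleus's own UMIs, Reln ran from 734 to 25902 CPM with a median of 9560 in the wildtype-labelled library. In the knockout-labelled library it ran from 494 to 26222 CPM with a median of 12807. The ranges of both libraries thus overlapped almost fully, although the summed levels differed by more than counting error. Within the range the quartiles differed most at the low end. The first quartile was 5318 and 10478 CPM, and the third 16315.5 and 16454 CPM. With each nucleus thinned to 1000 UMIs, the median was 10 and 12 Reln UMIs.

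Most of the Reln UMIs lay outside the Cajal-Retzius cell-like nuclei. They made up 0.568% of the nuclei labelled wildtype and 0.509% of those labelled knockout, and held 36.1% and 36.4% of the Reln UMIs. Neuron-like nuclei held 22.1% and 29.1% and other excitatory neuron-like nuclei 8.75% and 11.5%. The remaining Reln was thus spread over many nuclei at low counts, with a few rich ones. Outside the Cajal-Retzius cell-like class, 27 and 45 nuclei had 10 or more Reln UMIs, and they held 26.7% and 31.0% of the Reln UMIs found there. Of these rich nuclei, 8 and 16 were in cluster 6, which is neuron-like, and 6 and 9 in the unnamed cluster 11. Trp73 was detected in 9 of the 27 and 6 of the 45, and 4 and 6 were among the 8% of nuclei with the highest doublet scores. In cluster 11, whose nuclei had a median of 6410 and 7408.5 UMIs, 77.0% and 43.0% of nuclei were in that top 8%.

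**Figure D1:**
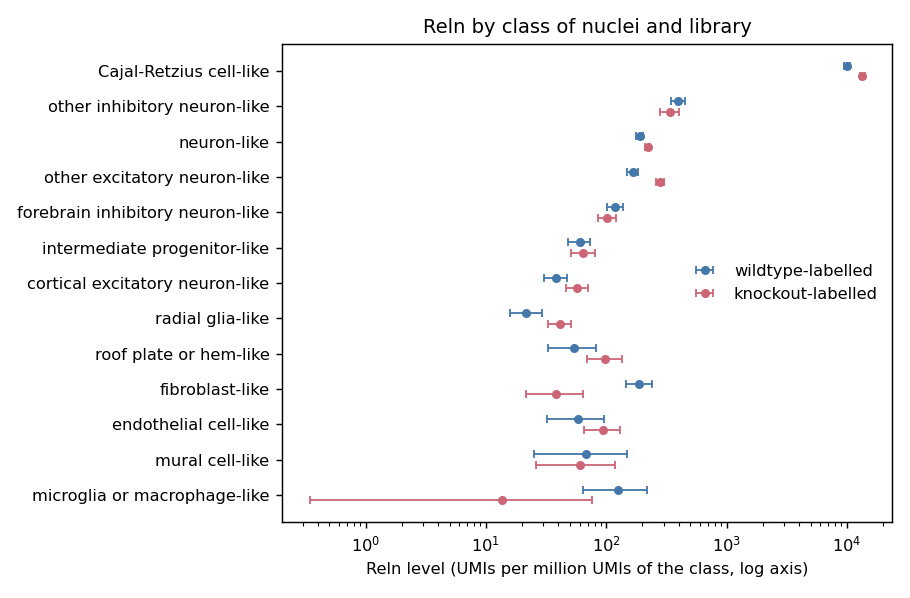
Reln level in each named class, as UMIs per 1000000 UMIs of the class (CPM) on a log axis, with 1 point per library and 95% Poisson intervals. Cajal-Retzius cell-like nuclei stand at 10083 and 13450 CPM, and radial glia-like nuclei at 21.6 and 41.4 CPM.

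Below the Cajal-Retzius cell-like class the order of Reln levels was led by a class of inhibitory neurons. Other inhibitory neuron-like nuclei, which are led by Pax7, Otx2, Sox14 and Gata3, had 397 (344 to 456) and 337 (281 to 401) CPM. In the wildtype-labelled library they stood apart from the next class, and in the knockout-labelled library their interval met that of other excitatory neuron-like nuclei. The latter had 166 and 280 CPM, and neuron-like nuclei had 190 and 221 CPM. Forebrain inhibitory neuron-like nuclei had 118 and 102 CPM, and here Reln split by cluster. Cluster 13, led by the interneuron factor Lhx6, had 187 and 172 CPM, while cluster 15 of the same class had 8.42 and 19.8 CPM. Intermediate progenitor-like nuclei had 60.1 and 64.2 CPM, cortical excitatory neuron-like nuclei 38.3 and 57.5 CPM and radial glia-like nuclei 21.6 and 41.4 CPM.

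Free RNA can place UMIs in nuclei that do not express a gene, and a pool of endothelial cell-like, mural cell-like, fibroblast-like and microglia or macrophage-like nuclei was taken as a first measure of it. Many nuclei of this pool had high doublet scores. The top 8% of scores took in 19.3% and 28.2% of fibroblast-like and 14.6% and 28.1% of endothelial cell-like nuclei. It took in 15.2% and 17.5% of mural cell-like and 19.2% and 0.0% of microglia or macrophage-like nuclei. A Reln UMI was found in 12.5% and 9.52% of the nuclei of the pool, at median depths of 2485.5 and 2850 UMIs. The shares were 4.04% and 7.30% in radial glia-like nuclei (2074 and 2268 UMIs), 7.30% and 8.26% in intermediate progenitor-like nuclei (1935 and 2020 UMIs) and 6.73% and 6.87% in cortical excitatory neuron-like nuclei (2566 and 2722.5 UMIs). All are below the pool as deposited, where depths differ. With nuclei thinned to equal depth, as given below, the cortical share was under that of the pool in the wildtype-labelled library. In the knockout-labelled library it was above that of the pool. The pool itself was uneven. Of the 98 Reln UMIs of the wildtype-labelled pool, 2 nuclei held 53, and 1 of them was in the top 8% of doublet scores. In the knockout-labelled pool 2 nuclei held 23 of the 58, and both were in that top 8%. Lower levels were found elsewhere. Cluster 15 had a Reln UMI in 1.48% and 3.64% of nuclei, and radial glia-like cluster 16 in 2.19% and 3.76%, at 9.30 (4.64 to 16.6) and 21.2 (12.3 to 33.9) CPM. Intermediate progenitor-like nuclei, at 60.1 (48.3 to 73.9) and 64.2 (50.6 to 80.2) CPM, were above the level of clusters 15 and 16. The cortical excitatory class was above it as a whole, at 38.3 (30.4 to 47.6) and 57.5 (46.4 to 70.3) CPM, but not in both of its clusters. Its cluster 9 had 45.8 (35.4 to 58.3) and 70.4 (56.4 to 86.8) CPM, and 2 knockout-labelled nuclei held 38 of 87 UMIs there. Its cluster 8 had 21.6 (11.8 to 36.2) and 17.5 (7.03 to 36.0) CPM, with intervals that overlapped those of cluster 16. Clusters 15 and 16 were among the lowest in Reln, so a class lying above them is no test of free RNA. Radial glia-like nuclei as a whole had 21.6 (15.7 to 29.0) and 41.4 (33.0 to 51.4) CPM. In the knockout-labelled library that interval met those of the intermediate progenitor-like and cortical classes. It did not in the wildtype-labelled library. Whether the low shares in the intermediate progenitor-like and cortical classes are free RNA was not tested. In other inhibitory neuron-like nuclei the shares were 28.6% and 28.0% at 2139.5 and 2417 UMIs. Fibroblast-like nuclei had 188 Reln CPM in the wildtype-labelled library, but 2 nuclei held 53 of the 65 UMIs, and in the knockout-labelled library the level was 38.6 CPM.

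Reln outside the Cajal-Retzius cell-like nuclei was also set against Trp73. The Cajal-Retzius cell-like nuclei had 13.8 (11.1 to 17.2) and 22.9 (18.3 to 29.1) Reln UMIs per UMI of Trp73, a factor of those cells. All other nuclei summed had 34.8 (27.2 to 45.2) and 54.3 (42.0 to 71.5), so their summed Reln was not in the ratio to Trp73 that the Cajal-Retzius cell-like nuclei have. Roof plate or hem-like nuclei were the other way, with 1.18 (0.585 to 2.39) and 2.79 (1.48 to 5.55) Reln UMIs per Trp73 UMI. Radial glia-like, intermediate progenitor-like and cortical excitatory neuron-like nuclei had 0 to 2 Trp73 UMIs per library. Their intervals overlapped those of the Cajal-Retzius cell-like nuclei in both libraries. The intervals of neuron-like, other excitatory, other inhibitory and forebrain inhibitory neuron-like nuclei lay above them. The genes most like Reln over 9 classes in 2 libraries, 18 points without Cajal-Retzius cell-like nuclei, were Gm10475, Rcan2 and Cacna2d2, with Pearson r of 0.97, 0.89 and 0.89 on log2(CPM + 10). Points of 1 library share its depth. Gm10475 is a long noncoding RNA that lies within Reln on the opposite strand, with 347 and 561 UMIs. Whether the counting used strand is not given in the sources used here, so reads of the pair may not be told apart.

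The promoter sequence of Reln is shown with that of Dcx, since Reln had the steepest pattern over classes and Dcx a broad neuronal one. Both are the 250 bases before a RefSeq start, for Dcx the first of 2 listed, from the GRCm38.p6 build on the minus strand, written 5′ to 3′ with CpG pairs in capitals.
Reln, chr5:22344706-22344955: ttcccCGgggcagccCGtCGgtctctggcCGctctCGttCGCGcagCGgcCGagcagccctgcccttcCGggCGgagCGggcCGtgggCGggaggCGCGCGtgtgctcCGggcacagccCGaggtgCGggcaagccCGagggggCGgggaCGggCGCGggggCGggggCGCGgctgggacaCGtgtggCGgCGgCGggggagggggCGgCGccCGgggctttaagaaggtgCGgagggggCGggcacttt
Dcx, chrX:143933220-143933469: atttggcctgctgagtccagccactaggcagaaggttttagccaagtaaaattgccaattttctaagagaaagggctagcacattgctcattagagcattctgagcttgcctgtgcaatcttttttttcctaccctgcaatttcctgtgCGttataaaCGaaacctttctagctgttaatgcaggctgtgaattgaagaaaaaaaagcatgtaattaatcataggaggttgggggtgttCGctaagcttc
The Reln sequence has 37 CpG pairs and is 80.0% G and C, and 97.8% of 32851 mouse promoters of this length have fewer CpG pairs. It holds the GC box GGGCGG 6 times on either strand, overlaps counted, and 32.74% of all promoters hold it at least 1 time. The Dcx sequence has 3 CpG pairs, is 41.6% G and C, and holds 1 TATA box TATAAA, which 12.37% of promoters hold. The median promoter has 6 CpG pairs. No chromatin data were analysed here, so these are descriptions of sequence.

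Dab1, the adaptor that the receptors signal through, was highest in cortical excitatory neuron-like nuclei, where Reln was low. Its level there was 1900 (1841 to 1960) and 1787 (1723 to 1853) CPM, 2.99 and 2.77 times that of all other nuclei. Other inhibitory neuron-like nuclei were next with 1594 (1486 to 1708) and 1698 (1569 to 1835) CPM, and in the knockout-labelled library the intervals of the 2 classes met. At least 2-fold higher levels in both libraries were found for 2.13% of all genes in the cortical class and for 1.30% in the other inhibitory class, and Dab1 was the only member in each. With the 8% of nuclei of highest doublet score left out and the clusters rebuilt, the class named cortical excitatory neuron-like had 1201 and 1136 Dab1 CPM.

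Dab1 was at an intermediate level in neuron-like (956 and 887 CPM), other excitatory neuron-like (952 and 857 CPM) and radial glia-like nuclei (554 and 455 CPM). It was low in intermediate progenitor-like nuclei, at 159 and 172 CPM, and in forebrain inhibitory neuron-like nuclei, at 134 and 89.4 CPM. A Dab1 UMI was found in 18.5% and 21.3% of the former and 11.1% and 9.98% of the latter. The vascular, meningeal and microglial pool had one in 20.8% and 22.5%. This pool was deeper (2485.5 and 2850 UMIs) than both classes (1935 and 2020, and 1672.5 and 1848). At 1000 UMIs the shares were 12.3% (9.90 to 15.0) and 11.5% (8.84 to 14.6) in intermediate progenitor-like nuclei, against 8.65% (5.21 to 13.3) and 8.68% (5.30 to 13.2) in the pool, with overlapping intervals. In forebrain inhibitory neuron-like nuclei they were 6.74% and 6.39%, below the pool. Whether the shares in either class are free RNA was not tested. The same classes were at least 2-fold below the other nuclei in both libraries, as were 14.0% and 11.7% of all genes. The genes most like Dab1 over the 18 points were Ephb1 (r = 0.94), Nav2 (r = 0.90) and Fat3 (r = 0.89).

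Dab1 (ENSMUSG00000028519) lies on chromosome 4 at 103476556-104602041 and spans 1125.5 kb of GRCm39. Such long genes give many intronic RNA fragments in nuclei, and whether introns were counted is not given in the sources used here.

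The 2 receptor genes did not share a pattern over classes. Vldlr, which encodes the very low density lipoprotein receptor (ENSMUSG00000024924, chromosome 19 at 27193862-27231631), was sparse, with 698 and 805 UMIs. It was highest in roof plate or hem-like nuclei, at 91.0 (63.1 to 127) and 93.0 (65.5 to 128) CPM, and in other inhibitory neuron-like nuclei, at 76.7 and 77.1 CPM. Their intervals overlapped each other and those of the next classes, so no order among them is given. In the roof plate or hem-like class 6.92% of all genes were at least 2-fold above the other nuclei in both libraries, Vldlr among them. Within the cortical class, cluster 9 had 72.9 (59.6 to 88.2) and 61.5 (48.5 to 77.0) CPM of Vldlr, and cluster 8 had 35.4 (22.4 to 53.1) and 32.5 (17.3 to 55.6) CPM. Intermediate progenitor-like nuclei had 13.5 and 17.5 CPM. A Vldlr UMI was found in 2.70% and 3.67% of them, against 5.56% and 5.19% in the deeper vascular, meningeal and microglial pool. At 1000 UMIs the shares were 1.17% and 1.98% in the class and 1.44% and 0.913% in the pool.

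Lrp8, which encodes ApoER2 (ENSMUSG00000028613, chromosome 4 at 107659066-107734038), was highest in endothelial cell-like and intermediate progenitor-like nuclei. Endothelial cell-like nuclei had 598 (508 to 700) and 813 (723 to 911) CPM, and 68.8% of 48 and 90.6% of 64 of these nuclei had an Lrp8 UMI. Intermediate progenitor-like nuclei, which express Eomes, had 351 (322 to 383) and 386 (352 to 423) CPM, 2.45 and 2.63 times the level of all other nuclei. Both classes stood apart from the rest in both libraries, where 6.38% and 2.24% of all genes were at least 2-fold above the other nuclei. The other classes of neurons and radial glia-like nuclei lay between 84.5 and 157 CPM with the wildtype label and between 101 and 176 CPM with the knockout label. The antisense gene Lrp8os2, named after its counts were seen, lies within Lrp8 with 2284 and 2430 UMIs against 2775 and 3206 for Lrp8. If strand was not used in the counting, Lrp8 levels include reads of that gene. Of the vascular and meningeal classes, fibroblast-like nuclei were at least 2-fold below the other nuclei in both libraries for Dab1, Vldlr, Lrp8 and Dcx, as were 9.92% of all genes, and endothelial cell-like nuclei for Reln and Dab1, as were 7.83%.

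**Figure D2:**
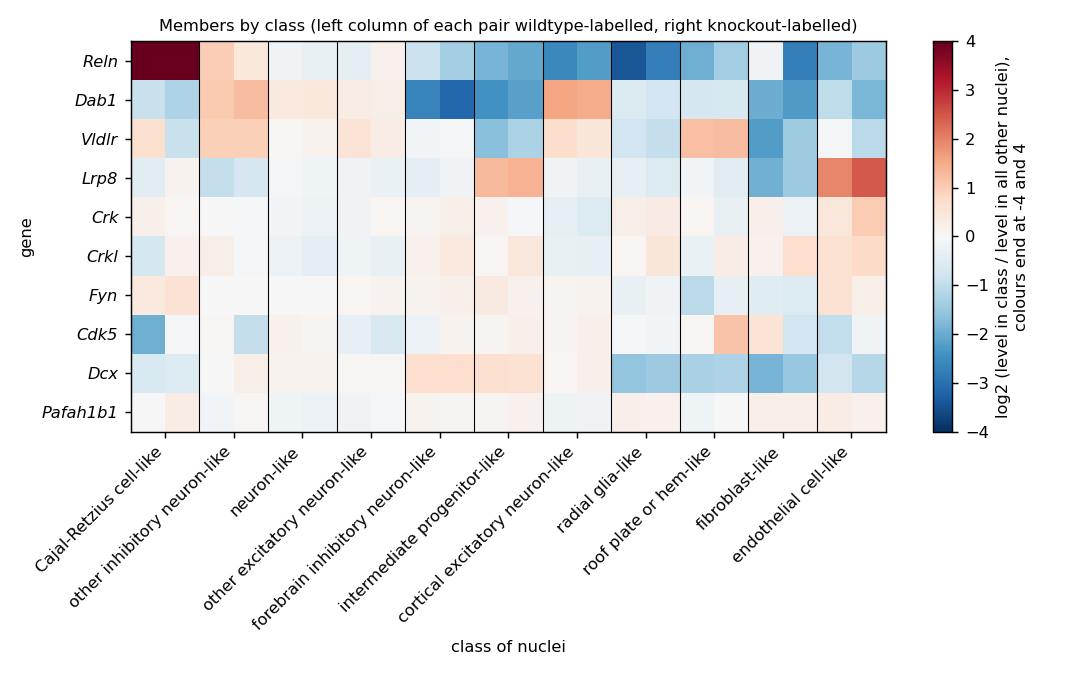
Log2 of the level of each member in a class over its level in all other nuclei, for 11 classes with 1 column per library in each pair, with colours that end at -4 and 4. Reln stands out in Cajal-Retzius cell-like nuclei, Dab1 in cortical excitatory and other inhibitory neuron-like nuclei, and Lrp8 in intermediate progenitor-like and endothelial cell-like nuclei, while the rows of Crk, Crkl, Fyn and Pafah1b1 stay pale.

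Reelin sources and receiving nuclei were then counted per nucleus. A nucleus with a Reln UMI was counted as a source, and one with a Dab1 UMI and a Vldlr or Lrp8 UMI as receiving. As deposited, 13.6% and 16.1% of nuclei were sources and 17.7% and 19.0% receiving. Both shares depend on depth, so each nucleus was thinned to 1000 UMIs, which left out 846 and 1111 shallower nuclei. Then 7.48% (6.82 to 8.19) and 8.82% (8.08 to 9.59) were sources, and 333 and 288 nuclei, or 5.70% and 5.17%, were receiving.

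The class richest in receiving nuclei was not among those richest in sources, while other inhibitory neuron-like nuclei were rich in both. At 1000 UMIs the receiving share was highest in cortical excitatory neuron-like nuclei, at 12.8% (10.4 to 15.5) and 12.0% (9.25 to 15.1), where 2.78% and 3.98% were sources. Other inhibitory neuron-like nuclei had 10.4% and 8.03% receiving and 19.9% and 21.9% source nuclei. Forebrain inhibitory neuron-like nuclei had 1.30% (0.624 to 2.37) and 1.85% (0.926 to 3.28) receiving and 6.49% and 5.55% source nuclei. In the vascular, meningeal and microglial pool 0.962% and 3.20% were receiving and 5.77% and 1.83% sources. Radial glia-like nuclei had 5.08% and 3.32% receiving, and intermediate progenitor-like nuclei 3.21% and 2.38%.

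Sources and receiving nuclei coincided about as often as the 2 shares multiplied. At 1000 UMIs, 0.428% (0.277 to 0.631) and 0.521% (0.349 to 0.747) of nuclei were both, against products of 0.427% and 0.456%. Outside the Cajal-Retzius cell-like class, and also at 1000 UMIs, nuclei with a Reln UMI had 727 (646 to 816) and 735 (658 to 818) Dab1 CPM, and those without one had 714 (691 to 737) and 641 (619 to 664). The intervals overlapped in both libraries, in the knockout-labelled one only from 658 to 664 CPM. Such overlap does not show that the levels are equal.

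**Figure D3:**
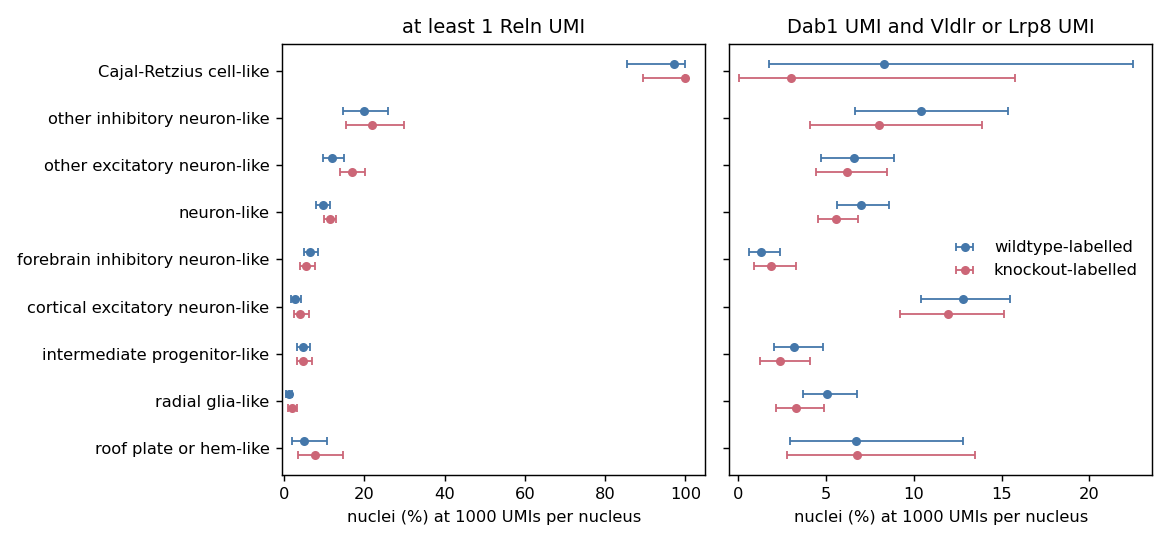
Share of nuclei with at least 1 Reln UMI (left) and with a Dab1 UMI and a Vldlr or Lrp8 UMI (right), in percent at 1000 UMIs per nucleus, by class and library with 95% binomial intervals. Cajal-Retzius cell-like nuclei are sources in 97.2% and 100% of cases, and the receiving share is highest in cortical excitatory neuron-like nuclei, at 12.8% and 12.0%.

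The genes of the kinase that acts on DAB1 and of the adaptors it recruits stayed within 2-fold of the other nuclei, in at least 1 library, in every class. Fyn, a Src family kinase, ranged from 246 to 369 CPM and from 256 to 320 CPM over the radial glia-like, intermediate progenitor-like and the 5 larger neuronal classes. Cajal-Retzius cell-like nuclei had 378 (279 to 502) and 418 (316 to 541) CPM. The widest values of Fyn were in small classes, at 139 and 224 CPM in roof plate or hem-like and 559 and 399.7 CPM in mural cell-like nuclei. Crk and Crkl, which encode adaptors that bind phosphorylated DAB1, were detected in 15.3% and 16.9%, and in 8.99% and 10.3%, of all nuclei. Crk had 79.1 and 85.4 CPM in radial glia-like and 56.0 and 48.9 CPM in cortical excitatory neuron-like nuclei. Crkl had 40.8 and 52.4 CPM in the former and 32.1 and 31.8 CPM in the latter.

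Among the migration genes, Dcx separated neurons and intermediate progenitor-like nuclei from radial glia-like nuclei, and Pafah1b1 did not. Dcx encodes doublecortin, a microtubule-associated protein of young neurons, and lies on chromosome X at 142638838-142716307 of GRCm39. It had 546 (510 to 584) and 522 (484 to 563) CPM in forebrain inhibitory neuron-like nuclei and 540 (503 to 579) and 499 (460 to 541) CPM in intermediate progenitor-like nuclei. The 4 other neuronal classes without the Cajal-Retzius cell-like nuclei had 356 to 385 CPM and 349 to 401 CPM, and Cajal-Retzius cell-like nuclei 237 and 235 CPM. Radial glia-like nuclei had 132 and 131 CPM. Dcx was at least 2-fold below the other nuclei there in both libraries, as were 11.0% of all genes. A Dcx UMI was found in 21.9% and 24.3% of radial glia-like nuclei, against 28.7% and 29.0% in the deeper vascular, meningeal and microglial pool. At 1000 UMIs the shares were 10.9% and 10.8% in the class and 6.73% and 10.5% in the pool. The genes most like Dcx over the 18 points were Nol4 (r = 0.98), Celsr3 (r = 0.97) and Apc2 (r = 0.96).

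Pafah1b1, which encodes the dynein regulator LIS1, lay between 302 and 425 CPM and between 312 and 498 CPM over all 13 classes. Cdk5, a kinase that phosphorylates doublecortin and other migration proteins, was the sparsest member with 520 and 604 UMIs. Over the 6 classes with at least 200 nuclei in each library its levels were 24.6 to 33.0 and 20.8 to 35.0 CPM. Cdk5 overlaps Abcb8 and Asic3 on the other strand, so its counts are uncertain where strand was not used.

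The libraries were compared for each member over all nuclei. None of the 10 members differed by 1.5-fold or more. Over all 15528 genes tested, 2.12% were higher and 0.605% lower by this fold with the knockout label, and the median log2 ratio was -0.01. Reln was at 206 (199 to 213) and 253 (247 to 261) CPM. Its log2 ratio, knockout-labelled over wildtype-labelled, was 0.30 (0.24 to 0.36), above that of 91.0% of genes. Dab1 stood at 789 and 739 CPM (log2 ratio -0.09, -0.13 to -0.06), Dcx at 360 and 339 CPM (-0.09, -0.14 to -0.04) and Fyn at 292 and 281 CPM (-0.06, -0.11 to -0.00). The intervals of the other 6 members included 0. Vldlr had 40.6 and 40.5 CPM and Lrp8 161 and 161 CPM. The median over the 10 members was 0.00.

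The Reln ratio over all nuclei depended on how classes and nuclei were weighted. Neuron-like nuclei, which carry Reln, numbered 1242 of 6686 with the wildtype label and 1670 of 6680 with the knockout label. With classes weighted equally the Reln log2 ratio was 0.01, a setting in which fibroblast-like nuclei, at 188 and 38.6 CPM, count as much as any other class. With at most 1% mitochondrial UMIs it was 0.17, and over named classes only it was higher than over all nuclei.

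Within the 6 classes of at least 200 nuclei in each library, Reln was the only member past 1.5-fold, and it was so in 3 classes, each time higher in the knockout-labelled library. Other excitatory neuron-like nuclei held 310 and 578 Reln UMIs, at 166 (148 to 185) and 280 (257 to 303) CPM (log2 ratio 0.75, 0.55 to 0.96), where 1.89% of 7036 genes were at least 1.5-fold higher. Radial glia-like nuclei held 44 and 83 Reln UMIs, at 21.6 (15.7 to 29.0) and 41.4 (33.0 to 51.4) CPM (log2 ratio 0.94), where 2.45% of 7781 genes were higher by as much. The class's nuclei sat in different clusters in the 2 libraries. Cluster 1 made up 137 of 890 and 240 of 795 of them, held 24 and 46 of these UMIs and had 64.7 and 65.2 CPM. Cluster 14 had 18.7 and 40.4 CPM, from 9 and 20 UMIs, and cluster 16 9.30 and 21.2 CPM, from 11 and 17 UMIs. With at least 1000 genes per nucleus and clusters rebuilt, the class ratio was 2.65. Cortical excitatory neuron-like nuclei held 80 and 94 Reln UMIs (log2 ratio 0.59, 0.14 to 1.03), with 1.09% of 6431 genes higher by as much. There 2 knockout-labelled nuclei held 38 of the 94 UMIs. In neuron-like, intermediate progenitor-like and forebrain inhibitory neuron-like nuclei, 1.86%, 0.947% and 1.42% of genes were at least 1.5-fold higher. Reln was not past 1.5-fold in neuron-like (0.22, 0.09 to 0.35), intermediate progenitor-like (0.09, -0.36 to 0.55) or forebrain inhibitory neuron-like nuclei (-0.21, -0.54 to 0.12). Within the neuron-like class, cluster 6, which was 616 of 1242 and 1062 of 1670 nuclei, had 245.1 and 248.6 Reln CPM (log2 ratio 0.02, -0.12 to 0.16). The class ratio thus includes a shift in the share of this Reln-rich cluster. For the class as a whole the sign turned, to -0.07, when nuclei of high doublet score were left out and clusters rebuilt.

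The 2 clusters of the other excitatory class differed in what moved with Reln. In cluster 10, led by Tfap2d and Pou4f1, Reln had 227 and 380 UMIs (log2 ratio 0.56, 0.32 to 0.80), and the summed level of the 7 Cajal-Retzius markers was 690 and 768 CPM. In cluster 12, named on 3 of its 10 class markers and led by genes such as Prox1 and Tcf7l2, Reln had 83 and 198 UMIs (log2 ratio 1.15, 0.78 to 1.54). The 7 Cajal-Retzius markers there summed to 111 and 322 CPM. Ebf3 had 52 and 210 UMIs, Lhx1 8 and 27 and Lhx5 5 and 22, while Trp73, the defining marker, had at most 3 UMIs in either library over the whole class. All 8 markers of other inhibitory neurons were also higher in the knockout-labelled nuclei of cluster 12, with summed levels of 14.7 and 85.3 CPM. These genes were named after their values were seen, and their part in the Reln difference was not tested. With the coarser clustering at a resolution of 0.5 the Reln log2 ratio in the other excitatory class was 0.11.

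Dab1 was lower with the knockout label, short of 1.5-fold, in 5 of these 6 classes. In other excitatory neuron-like nuclei 1.19% of genes were lower by at least 1.5-fold. In radial glia-like nuclei the log2 ratio was -0.28 (-0.41 to -0.16), with 554 and 455 CPM. In neuron-like nuclei it was -0.11 (-0.17 to -0.05), or 0.27 without nuclei of high doublet score and with clusters rebuilt, in other excitatory -0.15 (-0.25 to -0.06) and in cortical excitatory neuron-like nuclei -0.09 (-0.16 to -0.02). The lowest ratio was in forebrain inhibitory neuron-like nuclei, at -0.58 (-0.92 to -0.25) with 207 and 118 UMIs, where 1.01% of 5719 genes were lower by at least 1.5-fold. It came from cluster 13, with 163 and 66 Dab1 UMIs. When the 8% of nuclei with the highest doublet scores were left out of the same clusters, cluster 13 had 75 and 64 UMIs, at 89.4 and 91.4 CPM, and the log2 ratio was 0.03 (-0.47 to 0.53). From the cluster, that step took 36 of 512 nuclei with the wildtype label and 7 of 349 with the knockout label. The Dab1 difference in forebrain inhibitory neuron-like nuclei thus rested on nuclei with high doublet scores.

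**Figure D4:**
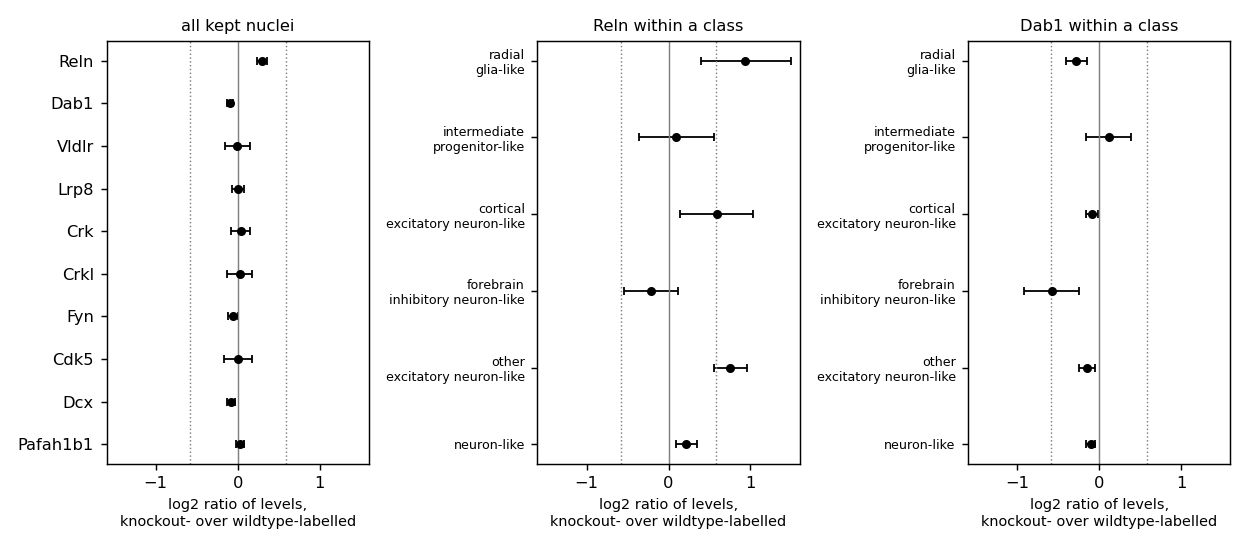
Log2 ratio of levels, knockout-labelled over wildtype-labelled, with 95% counting intervals, for the 10 members over all nuclei (left) and for Reln (middle) and Dab1 (right) within 6 classes. Dotted lines mark 1.5-fold. No member passes them over all nuclei, and Reln passes the upper one in 3 classes.

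The other members stayed within 1.5-fold in each of these 6 classes where they had at least 100 UMIs. Among them Fyn in intermediate progenitor-like nuclei, at 369 and 315 CPM (log2 ratio -0.23, -0.42 to -0.04), and Dcx in neuron-like nuclei (-0.10, -0.19 to -0.01) had intervals that did not include 0. In intermediate progenitor-like nuclei 0.836% and in neuron-like nuclei 0.973% of genes were at least 1.5-fold lower. Classes under 200 nuclei were not compared over all genes, and their values are given as such. Fyn in roof plate or hem-like nuclei had 52 and 89 UMIs at 139 and 224 CPM. In endothelial cell-like nuclei Dab1 had 103 and 76 UMIs at 398 and 209 CPM, and Lrp8 155 and 295 UMIs at 598 and 813 CPM.

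The wider pathway was followed in a list of 60 genes in 8 groups. They comprise other receptor ligands and proteins that control the receptors or Reelin cleavage, Src family kinases, effectors of DAB1, its turnover, adhesion targets, CDK5 partners, LIS1 and dynein, and the doublecortin family with tubulins. Of these, 59 had at least 100 UMIs, and 0 of 59 differed by 1.5-fold or more in either direction over all nuclei, against 2.12% and 0.605% of all genes. The median log2 ratio of the list was -0.01, as over all genes. Group medians lay between -0.08 for 13 DAB1 effectors and 0.06 for 7 adhesion targets. The ends of the list, named after their values were seen, were Spon1, which encodes F-spondin, at 45.0 and 63.5 CPM (log2 ratio 0.50, 0.36 to 0.63), and Dync1i1, a dynein intermediate chain, at 124 and 99.6 CPM (-0.32, -0.41 to -0.23).

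Over classes, the genes of the list that stood out were counted, and those named here were chosen after their values were seen. In cortical excitatory neuron-like nuclei 2 of 59 genes were at least 2-fold above the other nuclei in both libraries, Adamts3, a protease that cleaves Reelin, and Dync1i1, against 2.13% of all genes. In Cajal-Retzius cell-like nuclei 3 of 59 were: Nectin1, an adhesion molecule, Dync1i1 and Dcdc2a of the doublecortin family, against 3.68% of all genes. In radial glia-like nuclei, where 8.28% of all genes passed, 3 of 59 were: Clu, Itga5 and Nde1, a LIS1 partner. Forebrain inhibitory neuron-like nuclei also had 3 of 59 (1.46% of all genes). The highest counts were 6 of 59 in fibroblast-like (7.46% of all genes), 5 in mural cell-like (6.52%), 4 in roof plate or hem-like (6.92%) and 4 in endothelial cell-like nuclei (6.38%). Microglia or macrophage-like nuclei had 2 (6.32%). Intermediate progenitor-like, other inhibitory, other excitatory and neuron-like nuclei had 0, where 2.24%, 1.30%, 1.13% and 3.27% of all genes passed.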

How the data were processed

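The deposited matrices list whole UMI counts for each gene in each barcode, not normalized, and the file headers name Cell Ranger 6.1.1. The submitters' processing notes name Cell Ranger 3.0.1, STAR and the GRCm39 genome, and whether introns and strand were used in counting is not given in the sources used here. Barcodes with at least 500 genes and at most 5% mitochondrial UMIs were kept. Of 9763 and 10811 barcodes, 6686 and 6680 remained in the wildtype-labelled and knockout-labelled library. No columns were unused (0).

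Counts were scaled to 10000 per nucleus and log-transformed, and nuclei were clustered with scanpy 1.11.5 on 2000 variable genes per library, 30 principal components and 15 neighbours by the Leiden method at a resolution of 1, with no correction between libraries. The 10 members were left out of the clustering. A cluster was named from at least 3 class markers that were 2-fold above other clusters, and 1.5-fold within each library. The neuron-like class was named by another rule, from clusters that this left unnamed. At least 3 general neuron markers had to be 2-fold above the clusters named as non-neuronal, with no check within each library. Clusters with median UMIs over 3 times that of their library, or far below it, were not named neuron-like. By either rule a name was refused where more of the leading genes were markers of another class. Cluster 11, with a median of 6410 and 7408.5 UMIs, was past the upper limit. It had 292 and 231 Reln CPM and is in no class. These naming thresholds date from after the clusters had been looked at. The class names were rebuilt here and may differ from those of the study. Cluster 7, which is neuron-like, had 67.2 and 81.3 CPM of the cortical marker Tbr1. Cluster 8, which is cortical excitatory neuron-like, had 55.4 and 40.0 CPM. Scrublet's automatic threshold called 0 doublets in each library, so doublets were kept, and leaving out the 8% of nuclei with the highest scores was an alternative.

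UMIs were summed per library and class and given as UMIs per 1000000 (CPM) with exact Poisson intervals. Ratios have exact conditional binomial intervals and shares have Clopper-Pearson intervals (scipy 1.17.1), and all are 95% intervals of counting error. A gene counted as called at 1.5-fold between libraries, or at 2-fold against other nuclei in both libraries, with at least 100 UMIs over both. No p-value was computed. The log2 ratio and its interval were tested on simulated Poisson counts of whole libraries, which hold no spread between nuclei. Clustering, naming and thinning were not tested in this way. The named genes are the 10 members, Cav1, the pathway list, and the 3 genes most like Reln, Dab1 and Dcx. The members and lists were chosen with earlier results of these data known. Positions are from the GENCODE annotation of GRCm39, in which 54749 of 55416 features matched, and promoters from RefSeq.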

Additional observations from a re-analysis of the deposited data

Results flagged for a closer look

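The 3077 and 4131 barcodes left out for few genes or many mitochondrial UMIs also held UMIs of the 10 members, a signal in data that no comparison used. The members summed to 1649 CPM (1591 to 1709) in these barcodes of the wildtype-labelled library and to 1514 CPM (1467 to 1562) in those of the knockout-labelled library. In the kept nuclei they summed to 2330 and 2306 CPM. Reln stood at 77.6 and 71.6 CPM in the barcodes left out, and Dab1 at 133 and 107 CPM, both below their level in kept nuclei. Dcx was at 489 and 429 CPM and Pafah1b1 at 484 and 462 CPM, both above it.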

How the results depend on the processing

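The log2 ratios over all nuclei of Vldlr, Lrp8, Crk and Cdk5, whose intervals included 0, took either sign over the alternatives, and those of Reln, Dab1, Crkl, Fyn, Dcx and Pafah1b1 kept theirs. Where clusters were rebuilt, classes were named anew and hold other nuclei, and the cause of a move was not tested. The log2 ratio over all nuclei of Reln moved to 0.17 with at most 1% mitochondrial UMIs, 0.38 over named classes only and 0.0088 with classes weighted equally. Equal weights gave 0.21 for Crkl and -0.023 for Dcx. Dab1 moved to -0.054 without the 8% highest doublet scores and -0.14 thinned to 1000 UMIs. In the order without high doublet scores, at least 1000 genes and at most 1% mitochondrial UMIs, the Cajal-Retzius cell-like share of Reln UMIs was 39.7%, 37.8% and 38.4% (wildtype-labelled) and 38.7%, 34.8% and 28.7% (knockout-labelled). In that order receiving nuclei were 16.0%, 22.5% and 21.6%, and 17.9%, 24.4% and 23.1%, and thinned 5.70% and 5.17%. Cortical Dab1 was 1201, 1366 and 1436 CPM, and 1136, 1230 and 1381 CPM, with 1400 and 1325 CPM at a resolution of 2. Nuclei with a Reln UMI were 7.48% and 8.82% thinned, 15.9% and 19.7% with at least 1000 genes and 15.3% and 18.3% with at most 1% mitochondrial UMIs. Reln in Cajal-Retzius cell-like nuclei was 8229 and 12163 CPM with at least 1000 genes, and 3005 and 4134 CPM with at most 1% mitochondrial UMIs. That last limit gave Lrp8 in endothelial cell-like nuclei 418 and 638 CPM and Dcx in knockout-labelled forebrain inhibitory neuron-like nuclei 451 CPM. Without high doublet scores, endothelial Lrp8 was 1103 CPM in the knockout-labelled library. Ratios that turned sign without high doublet scores were Dab1 in forebrain inhibitory (0.25) and neuron-like nuclei (0.27) and Reln in neuron-like nuclei (-0.069), and Dab1 in neuron-like nuclei was 0.058 with at least 1000 genes. Reln in other excitatory neuron-like nuclei was 0.47 with at most 1% mitochondrial UMIs, and in radial glia-like nuclei 2.11. Leaving out Cajal-Retzius cell-like nuclei, and leaving high doublet scores out of the same clusters, were chosen after seeing the data. No paired analysis was possible because the labels carry no replicate numbers and each genotype has 1 library.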
